A study of Mus musculus with 8 samples.

Results

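The comparison described here was the step from 6 to 12 h after cultures of the mouse Sertoli cell line TTE3 were moved to 39 °C. Members were chosen by title alone: 2 arrays titled 12 h were set against 2 arrays titled 6 h, so 4 of the 8 arrays of the series entered the contrast, and temperature was equal on both sides. All 22626 probe sets that were not controls belonged to it, and 13576 of them passed a filter on low signal and were tested. TTE3 cells came from transgenic mice whose large T-antigen, taken from simian virus 40, is temperature-sensitive, and every array, those at 0 h included, carried this transgene. The other groups were 2 arrays titled 0 h and 2 arrays titled 24 h at the nonpermissive temperature. At 0 h no time at 39 °C had passed, so those arrays mark the start. No second line, no wild-type cell and no culture kept at a lower temperature for the same hours was among the samples, so hours of heat, hours without a working T-antigen and hours in culture cannot be told apart. It is not stated whether both samples of a time grew as cultures of their own; the p-values therefore rest on a spread between samples that may be technical.

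Large T-antigen binds and silences p53 and the retinoblastoma family, and a temperature-sensitive form releases them when it unfolds at the nonpermissive temperature. Warming also unfolds cellular proteins, which frees heat shock factors to switch on chaperone genes; chaperones then hold those factors back again, so the response is usually brief. Sertoli cells are the somatic nurse cells of the seminiferous tubule, which stop dividing as they mature and feed germ cells with lactate, iron carriers and stem cell factor.

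Of the 13576 probe sets tested, 1130 were called at an adjusted p below 0.05 in limma's moderated test (8.32%). At 12 h 626 were higher (4.61%) and 504 were lower (3.71%). Taking 1 probe set for each of 7707 genes, 656 were called (8.51%), 380 higher (4.93%) and 276 lower (3.58%), and only 35 rose and 15 fell by 2-fold or more. The signals of the 6 h and 12 h arrays did not overlap for 3847 genes (49.9%), so absence of overlap with 2 arrays a side says little by itself. The median difference over all genes tested was 0.01 on the log2 scale. The same fit called 2441 probe sets from 0 to 6 h (18.0%) and 934 from 12 to 24 h (6.88%); these steps share the 6 h or the 12 h arrays with the comparison described here.

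The number of calls depended on single arrays, while no probe set called in both fits changed direction. Leaving out 12 h replicate 2 gave 330 calls and leaving out 12 h replicate 1 gave 484. Either 0 h array left out gave 592, a 24 h array 701 or 706, 6 h replicate 1 gave 1032, and 6 h replicate 2 gave 1552. In every one of the 18 alternatives of processing that tested them, 109 genes stayed called, and those are preferred as examples below. Over all 22626 probe sets, which are not independent, the 6 h arrays correlated with r = 0.9795 and the 12 h arrays with r = 0.9788, against 0.9858 at 0 h and 0.9851 at 24 h. The correlations of a 6 h with a 12 h array ran from 0.9713 to 0.9787, so the closest pair across the times was nearly as alike as the pairs within a time.

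**Figure D1:**
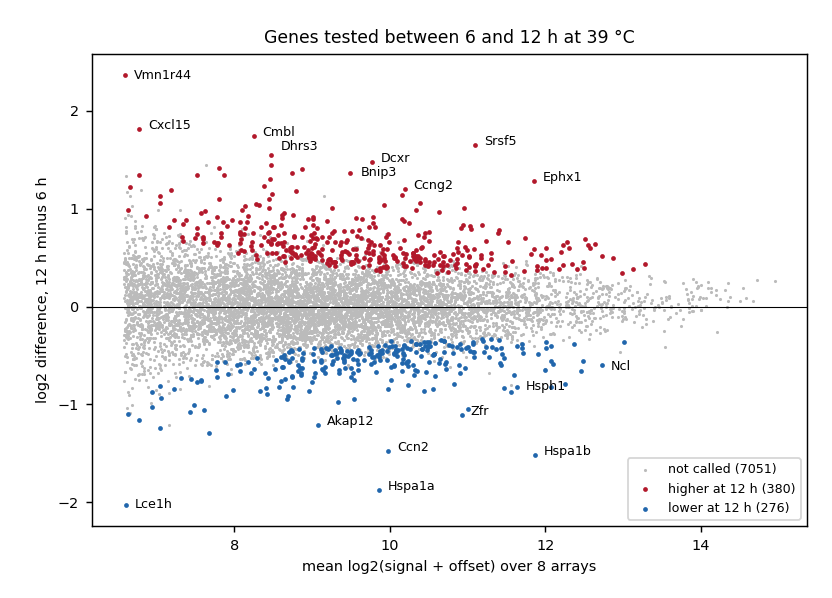
Log2 difference between 12 and 6 h (vertical axis) against mean log2(signal + offset) over the 8 arrays (horizontal axis), 1 point for each of 7707 genes, red for the 380 called higher and blue for the 276 called lower. Hspa1a, Hspa1b and Ccn2 lie lowest among the brighter genes, Srsf5, Dcxr and Ephx1 highest, and the points near the left edge are dim probe sets.

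Several inducible cytosolic chaperones fell. Of 43 tested genes of the cytosolic heat shock list, 9 were lower at 12 h (20.9%, against 3.58% of all genes) and 0 higher. The median difference was -0.09 against 0.01 over all genes tested. The shares of all genes tested, 4.93% higher and 3.58% lower, are the background for every list count. Among the HSP70 and HSP110 genes 4 of 8 were lower (median -0.25), among the HSP90 genes and their partners 2 of 10, and among J-domain, small HSP and BAG genes 3 of 14. At an unadjusted p below 0.05, 14 genes of the list were lower and 3 higher. The lists here were chosen with earlier results of these data known, so their counts describe and do not test. Without 12 h replicate 2 the list had 3 lower genes, without 12 h replicate 1 or either 0 h array 5.

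Hspa1a, an HSP70 that refolds heat-damaged protein, gave 3403 and 4085 units at 6 h and 918 and 1090.1 units at 12 h. Both 12 h arrays lay far below both 6 h arrays and still above the signals of 269.9 and 307 units at 0 h. The log2 difference was -1.88 ± 0.14 (adjusted p = 6.04e-05), a 3.67-fold fall, and in the preceding step it had risen by 3.60. Its near-identical neighbour Hspa1b gave 12988 and 10905 units at 6 h and 4939.5 and 3468 units at 12 h, and its 3 probe sets fell by 1.40 to 1.63. The arrays may not tell these copies apart, so they count as weakly separate evidence. Hsph1, an HSP110 that exchanges nucleotide on HSP70, gave 9279.7 and 7919 units at 6 h and 5030.3 and 4683 units at 12 h; it fell 1.76-fold (-0.82 ± 0.10, adjusted p = 0.00145). Both 12 h arrays lay between the 6 h arrays and the signals of 972 and 952 units at 0 h, and the gene fell by a further 0.99 to 24 h. Dnaja4, a J-domain partner of HSP70, fell by 0.92 (adjusted p = 0.0136), a call that was lost without 12 h replicate 2 (adjusted p = 0.079).

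Other abundant chaperones were not called in the probe sets used. Hspa8, the constitutive HSP70, gave 21287 and 14452 units at 6 h and 18427 and 16755 units at 12 h, a difference of 0.00 ± 0.16, although 1 of its 4 probe sets was called lower. Hsp90aa1, the inducible HSP90, gave 17119 and 14535 units at 6 h and 15728 and 14365 units at 12 h, with overlapping groups and a difference of -0.07 ± 0.10 (adjusted p = 0.723). Dnajb1, a J-domain protein that also feeds back on heat shock factor, gave 1686 and 1804 units at 6 h and 1409 and 1701 units at 12 h, again with overlap (-0.17 ± 0.11, adjusted p = 0.386). In the first 6 h Hsp90aa1 had risen by 0.55 and Dnajb1 by 0.78, while Hspa8 had a difference of 0.12 without a call.

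The heat shock factor binding sequence is shown for the lowered genes because it is the best known element of their promoters. Windows from 250 bases before to 50 after the start were searched on both strands for GAANNTTC or TTCNNGAA. Of the 9 lowered heat shock genes, 7 held a match (77.8%), against 18 of 38 genes of the list with a window (47.4%), 13.7% of all tested genes with a window and 15.1% of all 32851 windows. Windows of Hspa1b and Hsph1 from RefSeq (GRCm38.p6), 5′ to 3′ on the gene's strand with matches in capitals, are given here. Hspa1b lies at chr17:34959189-34959488, minus strand, with 1 match that begins 104 bases before the start. The Hspa1a window is identical at 296 of 300 bases. Hsph1 lies at chr5:149636287-149636586, minus strand, 1 of 2 windows of the gene, with matches that begin 33 bases before and 36 and 41 bases after the start, the last 2 overlapping. A match describes letters and does not show binding in these cells.
Hspa1b: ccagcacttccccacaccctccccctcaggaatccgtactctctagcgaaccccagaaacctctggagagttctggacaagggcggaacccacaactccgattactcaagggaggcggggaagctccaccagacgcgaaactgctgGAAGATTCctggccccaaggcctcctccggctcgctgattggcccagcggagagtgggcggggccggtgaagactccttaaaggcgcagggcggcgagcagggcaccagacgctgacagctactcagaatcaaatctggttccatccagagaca
Hsph1: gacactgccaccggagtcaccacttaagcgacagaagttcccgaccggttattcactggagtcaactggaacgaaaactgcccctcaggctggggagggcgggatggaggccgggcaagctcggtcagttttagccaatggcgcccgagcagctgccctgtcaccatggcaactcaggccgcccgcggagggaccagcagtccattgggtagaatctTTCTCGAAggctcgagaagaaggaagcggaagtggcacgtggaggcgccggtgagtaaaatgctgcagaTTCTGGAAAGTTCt

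Few genes of protein folding in the endoplasmic reticulum were called. Of 36 tested 3 were higher (8.33%, against 4.93% of all genes) and 1 lower (2.78%, against 3.58%). The median was 0.03, close to 0. Hspa5, the main HSP70 of this compartment, gave 12352 and 10161 units at 6 h and 10648 and 11955 units at 12 h, at a difference of 0.01 ± 0.12 (adjusted p = 0.971), after a rise of 0.88 in the first 6 h. Herpud1, a ubiquitin-like protein that helps to clear misfolded proteins from the reticulum, had the largest difference of the list and gave 283 and 255 units at 6 h and 667 and 841 units at 12 h. Both 12 h arrays were above the 6 h arrays and above the signals of 287 and 324 units at 0 h, and the rise was 2.66-fold (1.41 ± 0.15, adjusted p = 0.000523). Its 2 probe sets rose by 0.75 and 1.41. Ddit3, the stress factor CHOP, gave 820 and 917 units at 6 h and 1120.1 and 1108 units at 12 h and was not called (0.35 ± 0.11, adjusted p = 0.0747). Leaving out 12 h replicate 1, 12 h replicate 2 or 6 h replicate 1 left 1 higher gene, and leaving out 6 h replicate 2 gave 5. Herpud1 alone of the 3 was called under all 18 alternatives.

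**Figure D2:**
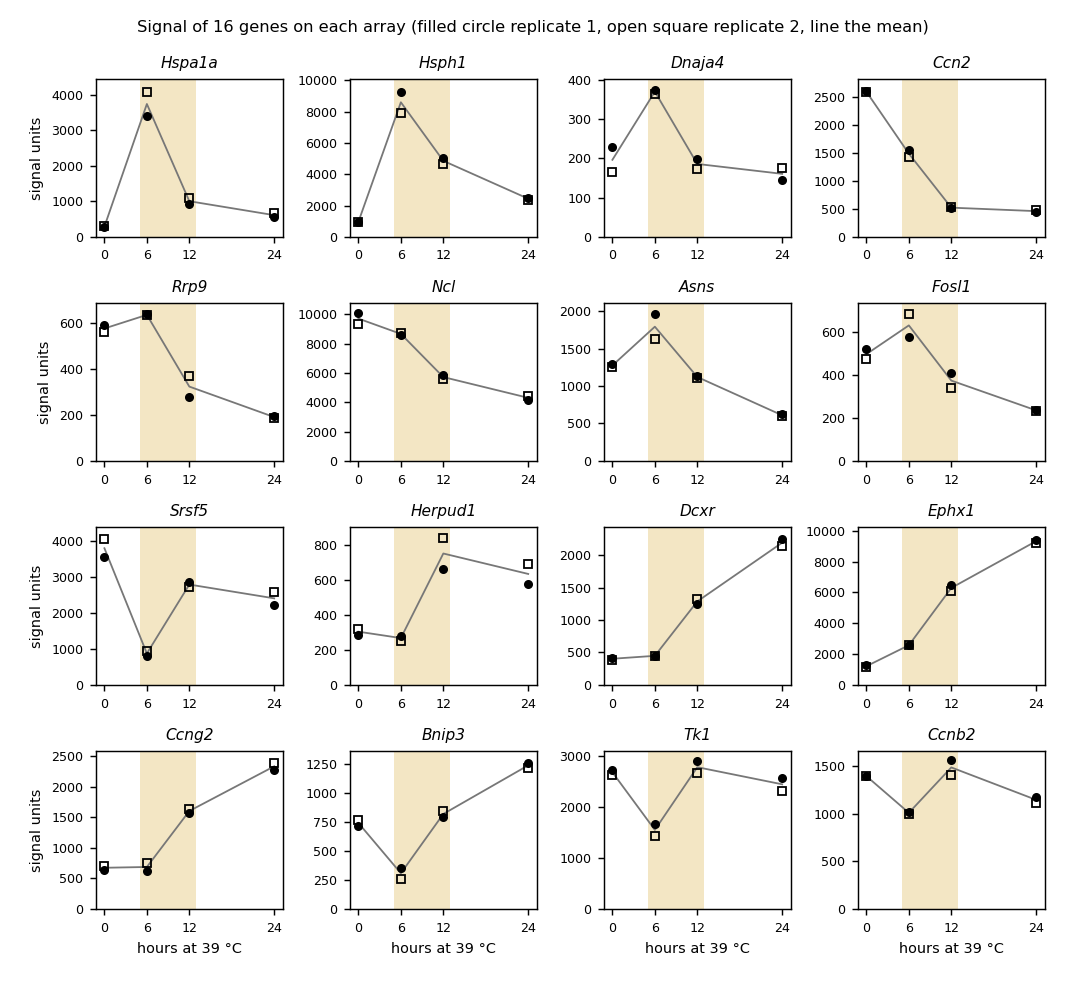
Deposited signal (vertical axes, linear, from 0) against hours at 39 °C (horizontal axes) for 16 genes, with filled circles for replicate 1, open squares for replicate 2, lines through the means and the 6 to 12 h step shaded. Hspa1a and Hsph1 peak at 6 h, Rrp9, Ncl and Asns descend after 6 h, Srsf5, Tk1 and Bnip3 dip at 6 h and return, and Dcxr and Ephx1 climb on to 24 h.

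Some genes of amino acid supply that the factor ATF4 is known to drive fell. Of 33 tested genes, 9 were lower (27.3%, against 3.58% of all genes) and 1 higher (3.03%, against 4.93%), with a median of -0.16. The lower ones were 5 of 12 enzymes and transporters (median -0.34) and 4 of 13 tRNA synthetases (Nars, Gars, Iars and Tars, each between -0.40 and -0.44). In the group of ATF4 factors 0 of 8 were lower and 1 was higher (median 0.06). Fitted on the 6 h and 12 h arrays alone, the list had 1 lower gene. Asns, which makes asparagine, gave 1960.4 and 1628 units at 6 h and 1132 and 1111 units at 12 h, with both 12 h arrays lower; it fell 1.58-fold (-0.66 ± 0.11, adjusted p = 0.00636) and by a further 0.86 to 24 h. Shmt2, which moves a carbon from serine to folate in mitochondria, gave 2399 and 2745 units at 6 h and 1655 and 1729 units at 12 h and fell by 0.60 (adjusted p = 0.00797). Psph, the last enzyme of serine synthesis, gave 1439.9 and 1622 units at 6 h and 1019 and 1076 units at 12 h and fell by 0.54, a call lost without 12 h replicate 1 (adjusted p = 0.0668) or replicate 2 (0.0517). The single riser was Nupr1, a small stress-response chromatin protein, with 219.5 and 147 units at 6 h and 379 and 412 units at 12 h. It rose by 1.05 ± 0.18 (adjusted p = 0.00666), and without 12 h replicate 2 its adjusted p was 0.0509. The number of lower genes was 2 without 12 h replicate 1, 3 without 12 h replicate 2, either 0 h array or either 24 h array, and 5 without 6 h replicate 1.

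In promoter windows, the ATF4-type letters TGATGNAA, searched on both strands, were in 4 of 8 lowered genes with a window (Asns, Gars, Iars and Tars, 50%) and 10 of 25 of the list (40%). Among all tested genes with a window 2.51% held them, and among all windows 3.97%. The window of Asns is shown because Asns, alone of these 4 genes, was called under all 18 alternatives: RefSeq, GRCm38.p6, chr6:7693160-7693459, minus strand, with the match in capitals beginning 23 bases before the start.
Asns: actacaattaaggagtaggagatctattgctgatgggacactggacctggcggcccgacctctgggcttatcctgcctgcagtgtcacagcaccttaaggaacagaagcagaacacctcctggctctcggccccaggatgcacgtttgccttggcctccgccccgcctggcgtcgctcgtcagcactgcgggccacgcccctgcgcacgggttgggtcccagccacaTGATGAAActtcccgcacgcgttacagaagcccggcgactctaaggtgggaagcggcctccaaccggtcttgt

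Ribosome biogenesis held the largest share of lowered genes of the lists examined. Of 57 tested genes 22 fell and 0 rose (38.6% lower, against 3.58% of all genes tested), and the median was -0.36. By role, 8 of 12 nucleolar core proteins (median -0.55), 13 of 34 assembly factors (median -0.37) and 1 of 11 polymerase I and III subunits (median -0.08) were lower. Rrp9, a protein of the U3 particle that guides cleavage of ribosomal RNA, gave 637 and 633 units at 6 h and 276 and 370.2 units at 12 h. Both 12 h arrays were lower, and it fell 1.92-fold (-0.94 ± 0.15, adjusted p = 0.00452). Mybbp1a, a nucleolar MYB-binding protein, gave 4755 and 3879.9 units at 6 h and 2418 and 2266 units at 12 h and fell 1.83-fold (-0.87 ± 0.11, adjusted p = 0.00167).

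Heatr1, needed for early processing of the 18S precursor, gave 938 and 1013 units at 6 h and 580.1 and 587 units at 12 h and fell by 0.72 ± 0.12 (adjusted p = 0.00571). Ncl, nucleolin, an abundant nucleolar RNA-binding protein, gave 8608 and 8719.9 units at 6 h and 5836 and 5599.7 units at 12 h, and 3 of its 4 probe sets were called lower, from a range of -1.44 to -0.31. In the first 6 h none of Rrp9, Mybbp1a, Heatr1 and Ncl had been called, with differences of 0.14, 0.02, 0.18 and -0.16. Nop58, a core protein of box C/D particles, gave 1728 and 1504 units at 6 h and 1088 and 885 units at 12 h and fell by 0.70 (adjusted p = 0.00672), which became 0.0538 without 12 h replicate 2. Npm1, nucleophosmin, gave 13843 and 11966 units at 6 h and 12201 and 12853 units at 12 h, with overlap and no call (-0.04 ± 0.10, adjusted p = 0.84). Leaving out 12 h replicate 2 left 7 lower genes in the list, 12 h replicate 1 left 11 and either 0 h array 14; any other array left out gave 18 to 23.

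Of the structural ribosomal proteins limma called 0 of 30 in either direction, with a median of 0.06; at an unadjusted p below 0.05, 2 were higher and 1 lower. Without 6 h replicate 1, 6 were called higher, and without 6 h replicate 2, 1 was called lower. Myc, the factor best known for driving ribosome biogenesis, gave 726 and 679 units at 6 h and 774 and 726 units at 12 h, a difference of 0.09 ± 0.13 (adjusted p = 0.701). It had fallen by 0.75 in the first 6 h, and any link to the ribosome biogenesis genes was not tested. Of 7 tested members of the MYC network 1 was called, Mxd4, a repressor that competes with MYC for MAX. Mxd4 gave 393 and 378 units at 6 h and 774 and 701 units at 12 h and rose 1.86-fold (0.90 ± 0.12, adjusted p = 0.00201); 1 of its 3 probe sets lay at -0.07 and was not called.

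The E-box CACGTG, a palindrome bound by MYC and its partners, was in the windows of 6 of 21 lowered ribosome biogenesis genes with a window (Mybbp1a, Tsr1, Pes1, Nop2, Utp20 and Pno1, 28.6%) and of 10 of 50 in the list (20%). All tested genes with a window had it in 12.7% and all windows in 7.15%. The window of Mybbp1a is shown because it fell furthest of the 6: RefSeq, GRCm38.p6, chr11:72441077-72441376, plus strand, with the match in capitals beginning 40 bases after the start.
Mybbp1a: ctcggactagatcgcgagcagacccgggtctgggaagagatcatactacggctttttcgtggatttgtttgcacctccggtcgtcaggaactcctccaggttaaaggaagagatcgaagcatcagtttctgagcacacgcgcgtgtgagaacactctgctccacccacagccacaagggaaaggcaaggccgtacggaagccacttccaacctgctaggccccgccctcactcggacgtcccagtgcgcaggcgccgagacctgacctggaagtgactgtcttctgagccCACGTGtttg

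Some targets of p53 rose. Of 37 tested genes 9 were higher (24.3%, against 4.93% of all genes) and 0 lower, with a median of 0.31 against 0.01. Median centring left 6 higher, and the 6 h and 12 h arrays alone left 5. All 3 roles took part: 3 of 12 regulators and cell cycle brakes, 3 of 9 death genes (Ei24, Apaf1 and Casp6) and 3 of 16 repair and metabolism genes. The risers with the largest differences were enzymes. Dcxr, a carbonyl reductase that makes xylitol from xylulose, gave 444 and 452 units at 6 h and 1255 and 1319 units at 12 h; it had 421 and 386 units at 0 h, no call in the first 6 h, and then rose 2.78-fold (1.48 ± 0.10, adjusted p = 4.55e-05). Ephx1, the microsomal epoxide hydrolase, gave 2569.8 and 2579.6 units at 6 h and 6486 and 6097 units at 12 h, and rose 2.43-fold (1.28 ± 0.09, adjusted p = 4.55e-05) after a rise of 1.07 in the first 6 h. Both went on rising to 24 h, by 0.76 and 0.57.

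Trp53inp1, a stress protein that enhances p53, gave 1696 and 1953 units at 6 h and 3333 and 3205 units at 12 h and rose 1.79-fold (0.84 ± 0.10, adjusted p = 0.00137). Ccng1, cyclin G1, gave 7019.8 and 6404 units at 6 h and 10538 and 10344 units at 12 h and rose 1.55-fold (0.64 ± 0.09), and all 3 of its probe sets were called higher. Ckap2, a spindle protein that is also a p53-linked gene, gave 1641 and 1712 units at 6 h and 2599.5 and 2736 units at 12 h and rose 1.58-fold (0.66 ± 0.09). In these 5 genes the arrays of the 2 times did not overlap, and the calls held in all 18 alternatives.

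The familiar p53 targets Cdkn1a and Mdm2 had risen earlier. Cdkn1a, the CDK inhibitor p21, gave 6204 and 6461 units at 6 h and 7347 and 7324 units at 12 h, which did not overlap, but the difference of 0.21 ± 0.09 was not called (adjusted p = 0.182); its other tested probe set was called higher, with 0.67. In the first 6 h the probe set used had risen by 2.85. Mdm2, the ubiquitin ligase that limits p53, gave 5119.9 and 4274 units at 6 h and 5851 and 6023 units at 12 h (0.34 ± 0.10, adjusted p = 0.0673), after 1.96 in the first 6 h. The count of p53 targets was 5 without 12 h replicate 2, 6 without 12 h replicate 1 or any 0 h or 24 h array, and 9 without either 6 h array.

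Genes of DNA replication and mitosis were higher in a minority. In the replication list 11 of 80 were higher (13.8%, against 4.93% of all genes) and 1 lower (1.25%, against 3.58%), with a median of 0.15. The mitosis list had 12 of 58 higher (20.7%) and 0 lower (median 0.17). These medians do not stand apart from the 0.19 of the 11 reference genes. Median centring left 10 replication and 6 mitosis genes higher, and the 6 h and 12 h arrays alone left 1 of each. Of the replication list, 8 of 31 fork and nucleotide synthesis genes rose, against 1 of 20 licensing and helicase genes. Among 18 G1/S cyclins, CDKs and E2F genes 2 rose and 1 fell. The 11 risers of the list included 2 brakes on division, Rb1 (0.87 ± 0.20) and the CDK inhibitor Cdkn2d (0.70 ± 0.13). The 1 lower gene was the G1 cyclin Ccnd2 (-0.36 ± 0.09). None of these calls held in every alternative. Ccnd1, cyclin D1, was not called (-0.21 ± 0.11, adjusted p = 0.251). Tk1, thymidine kinase, gave 1675 and 1431 units at 6 h and 2906 and 2664 units at 12 h, against 2731 and 2638 units at 0 h. It had fallen by 0.79 in the first 6 h and rose by 0.84 ± 0.11 (adjusted p = 0.00167), so the 12 h signals overlapped those at 0 h, and it was called under all 18 alternatives.

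Rfc2, a subunit of the clamp loader, gave 1816 and 1517 units at 6 h and 2494 and 2601 units at 12 h and rose by 0.61, a call lost without 12 h replicate 2 (adjusted p = 0.0537). Pcna, the clamp itself, gave 11916 and 11283 units at 6 h and 13476 and 14162 units at 12 h, with both 12 h arrays higher and no call (0.25 ± 0.09, adjusted p = 0.0979). Mcm2, a helicase subunit, gave 2419 and 2251 units at 6 h and 2198 and 2348 units at 12 h and overlapped (-0.04 ± 0.09). Cdc6, a licensing factor, gave 1541 and 1827 units at 6 h and 1678 and 2176 units at 12 h (0.18 ± 0.13, adjusted p = 0.422), and Ccne1, cyclin E1, gave 258 and 233 units at 6 h and 321 and 349 units at 12 h (0.42 ± 0.13, adjusted p = 0.0773). Neither passed the test.

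Mad2l1, a spindle checkpoint protein, gave 2099.7 and 1856 units at 6 h and 3574 and 3237 units at 12 h and rose 1.72-fold (0.78 ± 0.14, adjusted p = 0.00782), after falling by 0.62 in the first 6 h. Ccnb2, cyclin B2, gave 1016 and 999 units at 6 h and 1562 and 1405 units at 12 h and rose 1.46-fold (0.55 ± 0.10, adjusted p = 0.00943). Without 12 h replicate 1 the adjusted p was 0.0534 for Mad2l1 and 0.061 for Ccnb2, and 0 mitosis genes remained called, against 4 without either 0 h array, 5 without either 24 h array, 6 when 12 h replicate 2 was left out, and 9 and 12 when 6 h replicates 1 and 2 were. Cdk1, the mitotic kinase, gave 6390.4 and 5381 units at 6 h and 6472 and 6098 units at 12 h (0.10 ± 0.10), and Mki67, a proliferation marker, gave 3094 and 2491 units at 6 h and 2850.0 and 3161 units at 12 h (0.11 ± 0.12); each overlapped and was not called. The replication list had 2 higher genes without 12 h replicate 2, 7 without 12 h replicate 1 or either 0 h array, and between 9 and 16 without any other array. As RNA of whole cultures was measured, a change in the number of cells in a phase and a change of RNA per cell cannot be told apart.

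Mitotic promoters commonly carry CCAAT boxes and the cell cycle element CHR, TTTGAA. Of the 8 raised mitosis genes with a window, 5 held CCAAT (62.5%) and 6 held TTTGAA (75%). In the whole list the shares were 72.9% and 66.7% of 48 genes, while all tested genes with a window gave 43.5% and 13.7%, and all windows 37.4% and 17.9%. The E2F-type letters TTTGGCGC, TTTCGCGC or TTTCCCGC were in 2 of 8 raised replication genes (25%), in 35.4% of 65 in the list, in 4.73% of tested genes and in 1.84% of windows. The Ccnb2 window is shown because Ccnb2 rose furthest of the 5 genes with CCAAT: RefSeq, GRCm38.p6, chr9:70421505-70421804, minus strand. Its 3 CCAAT boxes, in capitals, begin 87, 54 and 21 bases before the start. The window also holds TTTGAA, which is left in lower case.
Ccnb2: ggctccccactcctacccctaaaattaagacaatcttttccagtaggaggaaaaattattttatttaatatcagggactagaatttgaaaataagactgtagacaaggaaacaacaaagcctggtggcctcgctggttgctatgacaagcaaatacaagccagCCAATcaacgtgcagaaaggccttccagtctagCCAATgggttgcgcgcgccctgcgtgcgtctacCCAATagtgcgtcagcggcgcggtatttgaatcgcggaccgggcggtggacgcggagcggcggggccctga

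Some genes tied to growth arrest rose in the same step as some genes of the replication and mitosis lists. Of 16 tested genes of the FOXO, BTG and quiescence group 5 were higher (31.2%, against 4.93% of all genes) and 0 lower (median 0.32). Ccng2, an unusual cyclin linked to arrest, gave 616 and 756 units at 6 h and 1571 and 1632 units at 12 h; it had no call from 0 to 6 h and then rose 2.30-fold (1.20 ± 0.12, adjusted p = 0.000402). Pnrc1, a nuclear receptor coactivator with a role in mRNA decapping, gave 1403 and 1542 units at 6 h and 2855 and 3101 units at 12 h and rose 2.01-fold (1.01 ± 0.10, adjusted p = 0.000474), between a rise of 1.16 before and one of 0.78 after. Gas1, a growth-arrest membrane protein, gave 473 and 412 units at 6 h and 861 and 834 units at 12 h and rose 1.88-fold (0.91 ± 0.11, adjusted p = 0.00127), having fallen by 0.61 before. These 3 calls held under all 18 alternatives; the others were Ypel3, lost without 12 h replicate 1 (adjusted p = 0.0576), and Btg1. Without 6 h replicate 2 the count for the whole list of 27 rose from 5 to 11.

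Of 30 splicing factors 2 were higher (6.67%, near the 4.93% of all genes) and 3 lower (10%, against 3.58%). Srsf5, a serine- and arginine-rich splicing factor, gave 805 and 942 units at 6 h and 2861 and 2711 units at 12 h, against 3539 and 4049 units at 0 h. It had a log2 difference of -2.09 over the first 6 h, a called fall, and rose 3.15-fold (1.65 ± 0.12, adjusted p = 4.55e-05), so the 12 h arrays lay between those at 6 h and those at 0 h. Ddx5, an RNA helicase, gave 3195 and 3108 units at 6 h and 4982 and 4786 units at 12 h and rose 1.55-fold (0.63 ± 0.09, adjusted p = 0.00246) after falling by 0.97, although its 6 probe sets ran from -0.29 to 0.63 and 2 were called. Hnrnph1, an hnRNP that binds G-rich RNA, gave 5796 and 5314 units at 6 h and 3719.7 and 3828 units at 12 h and fell by 0.55 (adjusted p = 0.00571); its other probe set lay at -0.09. Hnrnpm and Srsf1 were the other called lower genes, at -0.40 and -0.59, and without 12 h replicate 2, either 0 h array or either 24 h array the count of lower genes was 1; with only the 6 h and 12 h arrays it was 0.

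Of 50 lysosomal and autophagy genes 11 were higher (22%, against 4.93% of all genes) and 1 lower (2%, against 3.58%). The median was 0.20, near the 0.19 of the reference genes. Median centring left 9 higher, and the 6 h and 12 h arrays alone left 2. Hydrolases gave 7 of 22 and membrane proteins 1 of 13. Scarb2, the carrier that brings glucocerebrosidase to the lysosome, gave 913 and 1009 units at 6 h and 1728 and 2073 units at 12 h and rose 1.95-fold (0.96 ± 0.11, adjusted p = 0.00102). Gabarapl1, an ATG8 protein of the autophagosome, gave 534 and 545 units at 6 h and 973 and 957 units at 12 h and rose 1.76-fold (0.81 ± 0.10, adjusted p = 0.00156). Both had fallen in the first 6 h, by 0.56 and 0.59, and the arrays of the 2 times did not overlap. The lone fall was Atg3, the E2-like enzyme that conjugates ATG8 proteins, with 3476 and 3057 units at 6 h and 2403 and 2304 units at 12 h (-0.47, adjusted p = 0.0162), lost without 12 h replicate 1 (adjusted p = 0.0547) or replicate 2 (0.09). The count of risers was 4 without 12 h replicate 2, 6 without 12 h replicate 1 or either 0 h array, and 8 to 10 without any other array.

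Oxidative phosphorylation had 1 higher (1.82%, against 4.93% of all genes) and 0 lower of 55 (median 0.03, close to 0). Of 33 proteasome subunits limma called 0 (median -0.15), with 1 higher and 4 lower at an unadjusted p below 0.05, and 4 called lower without 6 h replicate 2. Among glycolysis, lactate and hypoxia-type genes 4 of 19 were higher (21.1%, against 4.93% of all genes) and 0 lower (median 0.17). Bnip3, a mitochondrial receptor for mitophagy that hypoxia induces, gave 358 and 259 units at 6 h and 793 and 848 units at 12 h, against 716 and 769 units at 0 h. It had fallen by 1.23 in the first 6 h and rose 2.58-fold (1.37 ± 0.14, adjusted p = 0.00048), and it alone of the 4 was called under all 18 alternatives. Without 12 h replicate 1 or 2 it was the 1 gene called in the list, and without a 0 h array the count was 2.

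Sterol synthesis had few calls, with 2 higher (6.67%, near the 4.93% of all genes) and 0 lower of 30 (median 0.08). With only the 6 h and 12 h arrays 0 were higher. Hmgcs1 gave 1972 and 1855 units at 6 h and 1743 and 1768 units at 12 h (-0.12 ± 0.09, adjusted p = 0.451), although 1 of its 4 probe sets was called higher, and Sqle, squalene epoxidase, gave 1663 and 1808 units at 6 h and 1437 and 1368 units at 12 h (-0.30 ± 0.10, adjusted p = 0.0888). Both had fallen in the first 6 h, by 0.55 and 0.63, and neither had a called return by 12 h in the probe set used. The 2 called risers of the list had also fallen first. Nsdhl fell by 1.45 and then rose by 0.56 (adjusted p = 0.0198). Scd2 fell by 0.41 and then rose by 0.50 (adjusted p = 0.013), with its 3 tested probe sets called higher. The NRF2 and glutathione list had 4 higher (14.8%, against 4.93% of all genes) and 0 lower of 27 (median 0.07). Median centring gave 2 higher genes, and the 6 h and 12 h arrays alone gave 0. Gstm1, a glutathione transferase, gave 756 and 737 units at 6 h and 1046 and 1078 units at 12 h and rose by 0.50 (adjusted p = 0.013). That call was lost without 12 h replicate 2, where the difference was 0.475. Only 1 of its 4 probe sets was called, and they ran from -0.22 to 0.50.

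Of 29 targets of YAP, BMP and TGF-β signalling limma called 6 lower (20.7%, against 3.58% of all genes) and 0 higher (median -0.19). At an unadjusted p below 0.05, 2 were higher. With a stricter filter on low signal or without 6 h replicate 2, 1 was called higher. Ccn2, a matrix-bound growth factor that YAP and TGF-β induce, gave 1549.7 and 1429 units at 6 h and 514 and 530 units at 12 h, after 2608 and 2587 units at 0 h. It fell 2.77-fold (-1.47 ± 0.10, adjusted p = 4.55e-05), in addition to a fall of 0.80 in the first 6 h. Amotl2, an angiomotin that restrains YAP, gave 2212 and 2359 units at 6 h and 1358 and 1179 units at 12 h and fell 1.79-fold (-0.84 ± 0.12, adjusted p = 0.00306). These 2 were the list's calls left without 12 h replicate 2, a 0 h array or a 24 h array; 3 were left without 12 h replicate 1, and 4 without 6 h replicate 1.

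Cytoskeletal genes of the smooth muscle and actin list leaned the same way, 6 lower and 2 higher of 28. These were 21.4% lower, against 3.58% of all genes, and 7.14% higher, against 4.93%. Myo1c, an unconventional myosin, gave 5944 and 4794 units at 6 h and 3470.1 and 3311 units at 12 h and fell 1.57-fold (-0.65 ± 0.11, adjusted p = 0.00609), with 3 of its 4 probe sets called lower. Flna, filamin A, fell by 0.51, a call lost without 12 h replicate 1 (adjusted p = 0.0624) or replicate 2 (0.0555). Acta2, smooth muscle actin, gave 181 and 211 units at 6 h and 163 and 337 units at 12 h, with overlap and a wide error (0.25 ± 0.26). The count of lower genes was 1 without 12 h replicate 2 and 3 without 12 h replicate 1 or a 0 h array.

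Among immediate early genes 4 of 31 were lower (12.9%, against 3.58% of all genes) and 0 higher (median -0.13). Fosl1, the AP-1 subunit FRA1, gave 576 and 682 units at 6 h and 408 and 337 units at 12 h and fell by 0.72 ± 0.14 (adjusted p = 0.0125), which became 0.0852 without 12 h replicate 2; 0 of the 4 stayed called then, 1 without 12 h replicate 1 or a 0 h array, and 2 without a 24 h array or 6 h replicate 1. Fos gave 149.7 and 103 units at 6 h and 115 and 129 units at 12 h and Egr1 gave 658 and 565 units at 6 h and 601 and 497 units at 12 h, each overlapping and not called. Notch1, the receptor, gave 867 and 664 units at 6 h and 1265 and 984 units at 12 h, without overlap and without a call (0.54 ± 0.17, adjusted p = 0.0678), although its other tested probe set was called higher, with 0.80. Of 9 Notch pathway genes limma called 0 in the probe sets used, with 2 higher and 1 lower at an unadjusted p below 0.05.

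Of 9 tested keratin and surface genes 2 were higher (22.2%, against 4.93% of all genes) and 2 lower (22.2%, against 3.58%). Of 12 cell junction genes 2 were higher (16.7%) and 0 lower. Anxa8, an annexin, gave 218 and 169.5 units at 6 h and 534 and 588 units at 12 h and rose 2.72-fold (1.44 ± 0.15, adjusted p = 0.000523). F11r, the junction protein JAM-A, gave 1361 and 1285 units at 6 h and 2186 and 2433 units at 12 h and rose 1.73-fold (0.79 ± 0.10, adjusted p = 0.00156). Sprr1a, a small proline-rich protein of cornified and injured cells, gave 6779 and 6265 units at 6 h and 3912 and 3619.8 units at 12 h and fell 1.73-fold (-0.79 ± 0.09, adjusted p = 0.000924). These 3 calls held under all 18 alternatives. The other calls of the 2 lists, Krt13 (1.188), Jup (0.645) and Cd44 (-0.530), did not hold in every alternative. In the matrix list 3 of 31 were lower (9.68%, against 3.58% of all genes) and 1 higher (3.23%, against 4.93%). With only the 6 h and 12 h arrays 0 were called in either direction. Fn1, fibronectin, gave 6873 and 7213 units at 6 h and 4877 and 4700.0 units at 12 h. It fell by 0.55 (adjusted p = 0.00573), a call kept without each single array.

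Interferon and antigen presentation genes had 4 higher (20%, against 4.93% of all genes) and 0 lower of 20 tested (median 0.32). Ifi35, an interferon-induced protein, gave 432 and 461 units at 6 h and 795 and 743 units at 12 h and rose 1.69-fold (0.76 ± 0.12, adjusted p = 0.00416). It held under all 18 alternatives; the list's count was 1 without 12 h replicate 2 and 2 without 12 h replicate 1. Secreted inflammatory factors split, 5 higher (21.7%, against 4.93% of all genes) and 3 lower (13%, against 3.58%) of 23. Cxcl15, the chemokine lungkine, gave 14.2 and 12.1 units at 6 h and 95.7 and 108 units at 12 h, then 519 and 501 units at 24 h. It was below the offset of 21.9 units at 6 h, so its rise of 1.82 understates the ratio of signals and ranged from 0.98 to 2.86 with the offset and array choices. The proteases and inhibitors Mmp13, Timp1 and Plaur were the lower ones, at -0.61, -0.46 and -0.44, and 0 of them stayed called without 12 h replicate 2 or a 0 h array; the count of higher genes was then 1 and 3. Without any other array 1 or 2 were lower and 1 to 4 higher.

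**Figure D3:**
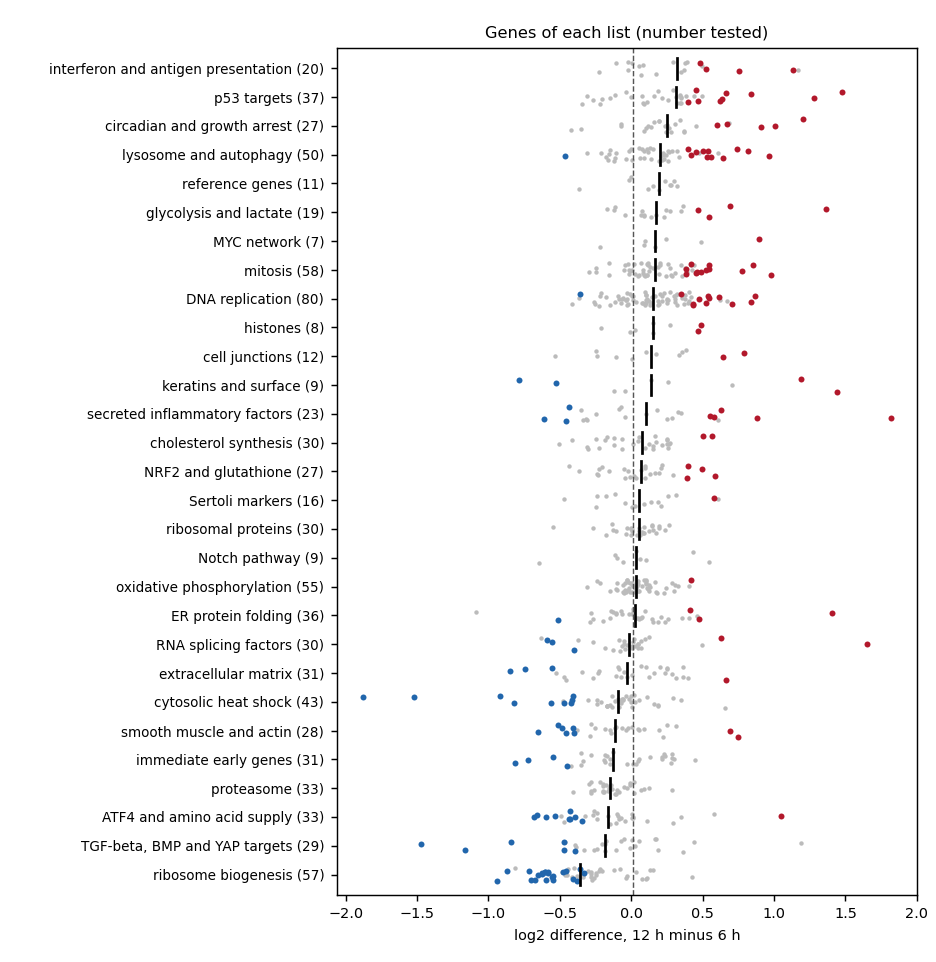
Log2 difference between 12 and 6 h (horizontal axis) for each tested gene of the lists (1 row each, number tested in parentheses), red for genes called higher, blue for genes called lower, grey for genes not called, with a black bar at each list's median. Ribosome biogenesis has its median farthest to the left, at -0.36, and the p53 and interferon lists have theirs at 0.31 and 0.32.

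By size, the largest differences were partly in dim probe sets. Vmn1r44, annotated as a vomeronasal receptor, led the risers at 2.36 from 18.7 and 17.5 units at 6 h and 135 and 247 units at 12 h, and Lce1h, a cornified envelope gene, led the fallers at -2.03 from 199 and 280.1 units at 6 h and 20.2 and 73.8 units at 12 h. Both lay near the offset on one side, and with other offsets and arrays they ranged from 1.45 to 2.75 and from -2.62 to -1.36. Their mean log2 values, 6.599 and 6.608, lay just above the filter's limit of 6.584. That mean includes the arrays compared, so the bright 12 h arrays of Vmn1r44 and 6 h arrays of Lce1h helped them pass. Their places at the top are therefore not independent of the filter. Cmbl, a carboxymethylenebutenolidase, gave 130.1 and 113 units at 6 h and 464 and 447 units at 12 h and rose 3.34-fold (1.74 ± 0.19, adjusted p = 0.000722). Dhrs3, which reduces retinal to retinol, gave 108 and 174 units at 6 h and 481 and 409 units at 12 h and rose 2.92-fold (1.55 ± 0.25, adjusted p = 0.00536). Prss35, a serine protease homologue, gave 159.6 and 231 units at 6 h and 497 and 567 units at 12 h and rose 2.58-fold (1.37 ± 0.16); it and Dhrs3 rose again by 24 h, by 1.11 and 1.29.

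Ift140, a protein of retrograde transport in cilia, gave 62.1 and 94.1 units at 6 h and 256 and 229 units at 12 h against 234 and 220.1 units at 0 h, so the rise of 1.42 ± 0.18 followed a fall of 1.33. Upk3b, a uroplakin of mesothelial and urothelial surfaces, gave 67.1 and 122 units at 6 h and 274 and 256 units at 12 h and rose by 1.34 ± 0.23 (adjusted p = 0.0069). On the falling side Tnfrsf21, the death receptor DR6, gave 346 and 315 units at 6 h and 103 and 144 units at 12 h and fell 2.44-fold (-1.29 ± 0.18, adjusted p = 0.00272), though its other probe set lay at -0.55 without a call. Akap12, a scaffold for protein kinases A and C, gave 908 and 951 units at 6 h and 383 and 396 units at 12 h and fell 2.31-fold (-1.21 ± 0.12, adjusted p = 0.000382). Zfr, a zinc finger RNA-binding protein, gave 3581 and 3231 units at 6 h and 1658 and 1477 units at 12 h and fell 2.16-fold (-1.11 ± 0.10), after a rise of 0.98, and Lrrc58 gave 3467 and 2959 units at 6 h and 1805 and 1311 units at 12 h and fell 2.07-fold (-1.05 ± 0.15). Every alternative that tested them kept these calls.

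**Figure D4:**
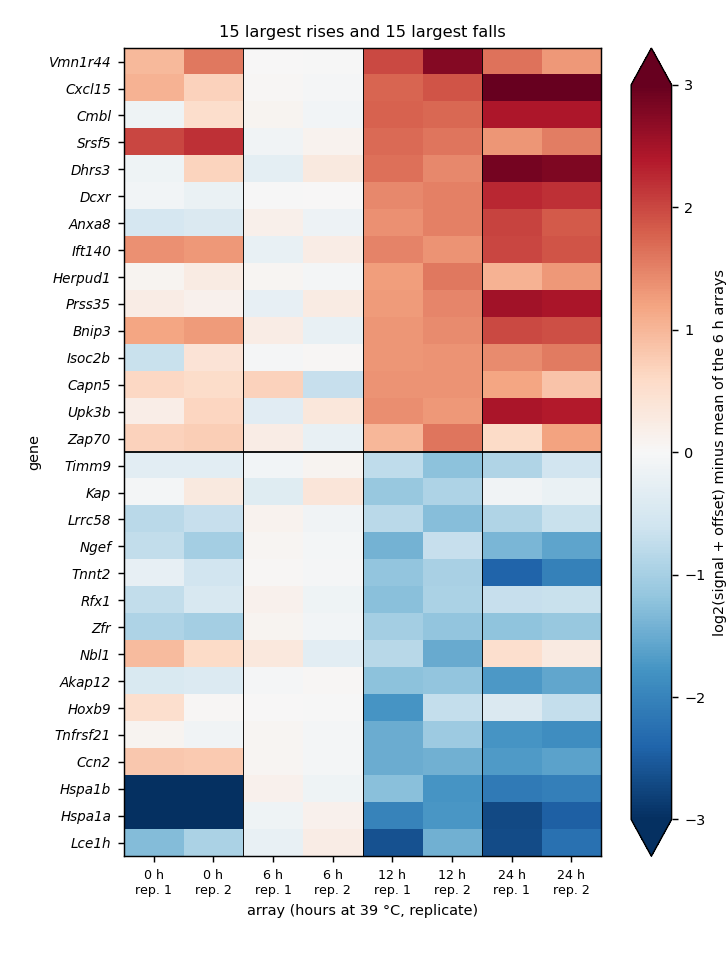
Log2(signal + offset) of each array minus the mean of the 6 h arrays (colour, clipped at 3 and -3) for the 15 genes with the largest called rises (upper block) and the 15 with the largest called falls (lower block), 1 column for each of the 8 arrays. Srsf5, Ift140 and Bnip3 are high at 0, 12 and 24 h and low at 6 h, Hspa1a and Hspa1b are far lower at 0 h than at 6 h, and Dcxr, Cmbl and Prss35 stay high at 24 h.

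Defining Sertoli markers were partly dim. Of 17 listed, 14 were on the arrays and 7 passed the filter; Amh gave 3.5 and 11.5 units at 6 h and 4.7 and 5.7 units at 12 h, and Fshr, the FSH receptor, 33.2 and 9.9 units and 49.8 and 45.5 units. Gata4 and Sox9, which direct Sertoli identity, gave 524 and 467 units at 6 h and 526 and 393 units at 12 h and 142 and 112 units at 6 h and 162 and 162 units at 12 h respectively, and neither was called. Clu, clusterin, an abundant Sertoli secretion, gave 1659.6 and 1295 units at 6 h and 2412 and 2014 units at 12 h and rose by 0.58 (adjusted p = 0.0349), in 1 of its 4 probe sets. Leaving out 12 h replicate 1 gave an adjusted p of 0.17, and 12 h replicate 2 gave 0.0633. Either 0 h array left out gave 0.0665 or 0.066, and 6 h replicate 2 gave 0.1. The summed Sertoli signal ran from 4306.0 to 5369 units at 6 h and from 4603 to 5251 at 12 h. This sum held opposite moves. Kitl, stem cell factor, gave 2390 and 1739 units at 6 h and 1561 and 1378 units at 12 h. Inhbb gave 321 and 308 units at 6 h and 263 and 262 units at 12 h, so both lay lower at 12 h. Of 16 tested genes in the wider Sertoli list 1 was called higher (6.25%, against 4.93% of all genes) and 0 lower.

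Markers of other testis cell types had lower summed signals than the Sertoli markers, whose sum lay mostly in Clu and Kitl. Some single markers were as bright as Sertoli factors. At 6 h the macrophage marker Cd68 gave 175.5 and 142.7 units and Acta2 gave 181 and 210.7, against 142.3 and 111.7 for Sox9. Summed signals at 6 and 12 h were 149 to 184 and 178 to 182.0 units for 5 Leydig markers, 303 to 373 and 298 to 548 for 5 peritubular myoid markers, and 592 to 615 and 603 to 706 for 8 macrophage and blood markers. For 6 endothelial markers they were 139.9 to 154 and 108 to 165 units. The 7 germ cell markers summed to 384 to 459 and then 676 to 686, a gain that lay in Kit, the receptor for stem cell factor: it gave 222 and 310 units at 6 h and 504 and 511 units at 12 h and rose by 0.90 ± 0.17 (adjusted p = 0.0119), with 0.0534 and 0.0643 without 12 h replicates 1 and 2. The other germ cell markers, Ddx4, Dazl, Sycp3, Tnp1, Prm1 and Stra8, stayed at or under 84.6 units on these 4 arrays, the highest being Prm1 on 12 h replicate 1, and none entered the test. Whether any of these cells contributed to a result was not tested. Of 11 reference genes limma called 0 (median 0.19), with 4 higher at an unadjusted p below 0.05 and 4 called higher without 6 h replicate 1, and Actb gave 25185 and 20802 units at 6 h and 25037 and 27267 units at 12 h, with overlap (0.19 ± 0.11, adjusted p = 0.3), although its other tested probe set was called higher.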

How the data were processed

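Total RNA of 8 TTE3 samples was labelled and measured on 8 Affymetrix 430A mouse arrays, per the labels. The authors deposited 1 linear intensity per probe set and array, between 0.1 and 38130.2; their software is not given in the sources used here. Each array's mean after trimming 2% at each end was 500.18 to 500.2, so the arrays had been scaled alike, and median signals were 138 to 154. Control ratios of 3' to 5' signal were 1.03 to 1.13 for actin and 0.718 to 0.805 for Gapdh. Detection calls were not used.

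Values were log2(intensity + 21.9), the offset being the 20th percentile, so log2 differences understate those of dim genes, and folds were computed from them. Arrays were used as deposited, since their medians differed by 0.14, under a limit of 0.3. Probe sets with a mean under the 40th percentile (6.584) were left out. The 4 times were groups in 1 model of all 8 arrays (limma 3.58.1, R 4.3.3, eBayes with a trend, 4 residual and 7.22 prior degrees of freedom), tested on simulated data; p-values were 2-sided and adjusted by Benjamini-Hochberg over 13576 probe sets. Values after ± are standard errors.

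Of 22626 probe sets, 20380 had 1 symbol in the platform annotation, 691 several and 1555 none; 20351 matched a RefSeq gene table (GRCm38.p6) by gene ID. A gene's value is that of its 1-symbol probe set with the highest mean. Named genes were the 15 largest called rises and falls without overlap, up to 4 called genes in each direction of each list, and 36 fixed anchors, of which Ccnb1 and Gapdh were not tested; other genes were named after their values were seen. Of 1207 entries in 34 lists, 890 were tested. The members and lists were chosen with earlier results of these data known. Lists were given by counts and medians, with no test. Promoter windows of 300 bases were available for 6337 tested genes. The 18 alternatives changed the offset, filter, scaling, variance trend, arrays fitted and a replicate block, or left out 1 array.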

Additional observations from a re-analysis of the deposited data

How the results depend on the processing

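Against 1130 called probe sets (626 higher and 504 lower), no filter gave 644 (364 and 280), the 6 h and 12 h arrays alone 240 (144 and 96), and no variance trend 606 (352 and 254). Leaving out 1 array at a time gave from 330 to 1552 calls in all, from 180 to 907 higher and from 150 to 645 lower. Calls from 3 other offsets, a stricter filter, quantile normalization and median centring numbered 983 to 1149. Median centring turned the share of calls that were higher from 55.4% to 45.6%. No probe set called both in the reported fit and in an alternative had opposite signs, and 43 of the 116 named genes that were called stayed so in every alternative that tested them. Same-numbered replicates deviated together weakly, with r from 0.05 to 0.18 over the 6 pairs of times and 0.079 for 6 and 12 h. The values for 0 and 12 h (0.146) and for 6 and 24 h (0.180) exceeded the limit of 0.1 set for pairing. Whether same-numbered samples were paired in the experiment cannot be told from these values. With replicate number as a block, 1463 probe sets were called, 794 higher and 669 lower, and 1 target of YAP, BMP and TGF-β signalling was called higher. When a left-out array leaves 1 at its time, that lone array is assumed to vary like the others. The causes were not tested. With 2 arrays a time, small differences were not detectable for many genes, and signal over background limits dim ones.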

Other observations

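Beyond the lists, several genes outside the naming rule had calls that held in all 18 alternatives; they were chosen after their values were seen. Srm, spermidine synthase, fell by 0.83 ± 0.10 (adjusted p = 0.000916), and Odc1, ornithine decarboxylase, the first enzyme of polyamine synthesis, fell by 0.79 ± 0.09 (adjusted p = 0.00107). Aldh3a1, an aldehyde dehydrogenase, rose 2.36-fold (1.24 ± 0.14, adjusted p = 0.000826). Metrnl, a secreted meteorin-like factor, fell by 0.98 ± 0.11 (adjusted p = 0.00102), and Fyn, a Src-family kinase, by 0.91 ± 0.14 (adjusted p = 0.00402). Neat1, the long noncoding RNA that builds paraspeckles, fell by 0.94 ± 0.12 (adjusted p = 0.00156).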
